A study of Mus musculus with 16 samples.

Results

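The genes described here are 5 S100 genes (S100a4, S100a6, S100a10, S100a11 and S100a13), 4 annexin genes (Anxa1, Anxa2, Anxa5 and Anxa6) and Lgals1, which encodes galectin 1. They are 10 of the 19195 genes of an RNA-seq table from sorted mouse regulatory T cells (Tregs). The 10 genes were taken by name, and the set was chosen by the low values of S100a4 and S100a6 in CCR8+ Tregs of the mediastinal lymph node (MLN). Comparisons that hold MLN CCR8+ libraries are therefore given as description, with no test of these 10 genes. In the 3 comparisons among the other 3 groups the genes were tested. Their differences use no MLN CCR8+ library, but their standard errors come from a model of all 4 groups and include the spread of those libraries. The cells came from 8-week-old Foxp3-GFP reporter mice at 7 days after myocardial infarction (MI). The 4 groups are heart CCR8- and heart CCR8+ Tregs from the injured heart, and MLN CCR8- and MLN CCR8+ Tregs from the lymph node that drains the chest. All 4 groups carry the reporter and had an infarct, so no uninjured or reporter-free group is included. Each group has 4 libraries of about 100 cells, sorted first on a magnetic column and then by flow cytometry, and the sources used here do not say if each was made from its own mouse. All p values thus measure the spread between libraries, which may be technical.

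S100 proteins are small calcium sensors of the EF-hand type that form dimers and bind other proteins when calcium rises. Annexins bind negatively charged membrane lipids in a calcium-dependent manner, and several S100 proteins dock onto the tails of particular annexins, the complex of S100A10 with annexin A2 being the best known. Galectin 1 is a lectin that binds beta-galactosides on surface glycoproteins and is released by Tregs, among other cells. In T cells S100A4 and S100A6 transcripts are known from effector and memory cells, and S100A4 binds non-muscle myosin in moving cells.

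Values are log2(FPKM + 1), FPKM being a read count scaled to transcript length and library total, so levels of different genes can be set side by side. Means are given ± SD over 4 libraries, differences between group means are on the log2 scale ± their standard error (SE), and a fold is the ratio of FPKM + 1. All 10 genes passed the filter on low values (FPKM of at least 1 in at least 4 of the 16 libraries), as did 10369 genes in all. Ccr8 mRNA was at 8.45 ± 0.24 in heart CCR8- and 10.01 ± 0.30 in heart CCR8+ libraries. In the node it was at 4.60 ± 0.66 in CCR8- and 7.78 ± 0.40 in CCR8+ libraries. It thus followed the sort within each tissue, while heart CCR8- cells had more of it on average than MLN CCR8+ cells. Foxp3 lay between 4.32 and 6.46 in every library. The libraries also held markers of other cell types. Summed FPKM of 10 fibroblast markers ran from 14.5 to 361 in the 8 heart libraries and from 0.0505 to 6.35 in the 8 MLN libraries, and that of 10 macrophage and monocyte markers from 3.94 to 2230 and from 5.38 to 148.

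Of the 10 genes 6 lie on mouse chromosome 3 (GRCm38). S100a13 (90514435 to 90524581), S100a4 (90603771 to 90606045) and S100a6 (90612882 to 90624181) lie in one S100 cluster, S100a11 (93520488 to 93526287) and S100a10 (93555080 to 93564643) lie together further along, and Anxa5 (36448923 to 36475894) lies apart. Anxa1 is on chromosome 19 (20373428 to 20390944), Anxa2 on chromosome 9 (69453620 to 69491795), Anxa6 on chromosome 11 (54979108 to 55033445) and Lgals1 on chromosome 15 (78926725 to 78930465). The promoters of S100a4, S100a6 and S100a11, the members that were lowest in MLN CCR8+ cells relative to MLN CCR8- cells, are shown for that reason. Each runs from 250 bases before to 50 bases after the start in RefSeq (GRCm38.p6), which had an entry for 7 of the 10 genes. The stretches are chr3:90603520-90603819, chr3:90612644-90612943 and chr3:93520246-93520545, all on the + strand. Capitals mark matches, on either strand, to the letters TGANTCA (AP-1), TGTGGT (RUNX), GGGCGG (SP and KLF) and CACGTG (E box).
S100a4: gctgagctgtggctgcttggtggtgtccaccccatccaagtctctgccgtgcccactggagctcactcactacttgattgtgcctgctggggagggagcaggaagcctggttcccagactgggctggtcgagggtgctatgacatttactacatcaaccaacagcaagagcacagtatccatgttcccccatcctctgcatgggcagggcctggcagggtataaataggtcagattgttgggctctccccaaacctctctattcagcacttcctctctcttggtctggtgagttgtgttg
S100a6: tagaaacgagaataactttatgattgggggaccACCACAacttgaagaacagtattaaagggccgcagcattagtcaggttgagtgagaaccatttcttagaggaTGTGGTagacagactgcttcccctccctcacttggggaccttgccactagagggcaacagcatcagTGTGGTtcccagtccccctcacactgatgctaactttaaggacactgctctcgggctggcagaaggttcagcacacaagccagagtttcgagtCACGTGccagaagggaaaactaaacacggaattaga
S100a11: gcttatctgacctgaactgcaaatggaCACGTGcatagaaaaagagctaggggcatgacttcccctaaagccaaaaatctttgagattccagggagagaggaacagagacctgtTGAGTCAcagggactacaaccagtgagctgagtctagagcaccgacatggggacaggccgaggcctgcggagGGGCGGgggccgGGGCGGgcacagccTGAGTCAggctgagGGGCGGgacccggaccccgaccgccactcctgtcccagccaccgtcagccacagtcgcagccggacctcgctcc

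The S100a4 window held none of the 4 motifs. The S100a6 window held 3 matches to TGTGGT and 1 to CACGTG. That of S100a11 held 2 matches to TGANTCA, 3 to GGGCGG and 1 to CACGTG. Among the 32851 RefSeq promoters of this length 7.81% held TGANTCA, 16.8% TGTGGT, 35.7% GGGCGG and 7.15% CACGTG. In the Anxa2 window 1 match to TGANTCA and 3 to GGGCGG were found, and in those of S100a13, Anxa1 and Anxa5 there was none. A match describes letters in the window and is no evidence of binding.

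S100a4 was among the most abundant transcripts in 3 of the groups and was low in the fourth. It read 12.21, 12.77, 11.31 and 12.28 in the heart CCR8- libraries, 11.83, 12.86, 12.18 and 12.11 in heart CCR8+, and 12.94, 12.82, 11.49 and 13.01 in MLN CCR8-. In MLN CCR8+ it read 8.76, 6.67, 6.15 and 2.59. Every MLN CCR8+ library thus lay below every library of the other groups, and the 4 MLN CCR8+ libraries were also far apart among themselves. Ranked by group mean, S100a4 was number 39 of all genes in heart CCR8-, 37 in heart CCR8+ and 26 in MLN CCR8-, against 1477 in MLN CCR8+. The difference between MLN CCR8+ (6.04 ± 2.56) and MLN CCR8- (12.57 ± 0.72) was -6.53 ± 0.78, or 92.2-fold. It was -5.37 ± 0.49, or 41.4-fold, without MLN CCR8+ replicate 4, the lowest library, so the size of the fold rests in part on that library while the separation does not. Replicate 4 had or shared the lowest value of the MLN CCR8+ group in 7 of the 10 genes and had the highest in 1. In these bulk libraries fewer cells with the transcript and less transcript per cell cannot be told apart.

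S100a6, which encodes calcyclin, a partner of annexins and of the calcyclin-binding protein, was also lowest in MLN CCR8+, from a lower level in the other groups. It read 9.85, 10.07, 10.15 and 9.54 in heart CCR8-, 9.85, 9.88, 10.09 and 9.77 in heart CCR8+, and 10.54, 10.34, 8.99 and 9.75 in MLN CCR8-. In MLN CCR8+ it read 5.98, 6.27, 5.71 and 3.53, again with no overlap. The means of the other 3 groups were all 9.90, and their ranges overlapped. MLN CCR8+ differed from MLN CCR8- by -4.53 ± 0.43, or 23.1-fold, and by -3.92 ± 0.28, or 15.1-fold, without MLN CCR8+ replicate 4.

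S100a10 encodes p11, an S100 protein that has lost calcium binding and pairs with annexin A2. Its levels were 11.64, 11.56, 11.35 and 12.03 in heart CCR8-, 12.18, 12.35, 12.05 and 12.28 in heart CCR8+ and 13.05, 12.91, 12.18 and 12.94 in MLN CCR8-. In MLN CCR8+ it read 10.52, 10.61, 10.71 and 10.24. The groups fell in the order MLN CCR8-, heart CCR8+, heart CCR8- and MLN CCR8+, and only the first pair of neighbours in that order overlapped, through MLN CCR8- replicate 3. Even at its lowest S100a10 remained abundant, at rank 121 of all genes in MLN CCR8+ (rank 18 in MLN CCR8-). S100a11, which encodes a partner of annexin A1, read 10.66, 11.29, 11.49 and 11.33 in heart CCR8-, 11.03, 11.59, 11.27 and 11.13 in heart CCR8+ and 11.86, 11.77, 11.36 and 12.03 in MLN CCR8-. The MLN CCR8+ libraries read 8.70, 9.21, 9.43 and 8.84. The first 3 of these groups overlapped, and MLN CCR8+ lay below them all. S100a13, whose protein takes part in the release of FGF1 and interleukin 1 alpha from cells, read between 7.71 and 8.71 in the other 12 libraries and 7.17, 7.05, 7.83 and 7.37 in MLN CCR8+. Its MLN CCR8+ replicate 3 overlapped the heart CCR8+ libraries but not the MLN CCR8- ones. MLN CCR8+ differed from MLN CCR8- by -2.71 ± 0.19 (6.55-fold) in S100a11, by -2.25 ± 0.17 (4.76-fold) in S100a10 and by -1.17 ± 0.21 (2.25-fold) in S100a13.

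Lgals1 had 10.51, 10.80, 10.96 and 10.90 in heart CCR8-, 11.31, 11.69, 11.19 and 11.36 in heart CCR8+ and 11.36, 11.74, 9.97 and 11.09 in MLN CCR8-. MLN CCR8+ libraries had 8.95, 8.81, 8.47 and 8.47. The MLN CCR8+ libraries lay below all others and close together, with an SD of 0.24 around a mean of 8.68. The difference from MLN CCR8- was -2.36 ± 0.26, or 5.15-fold.

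The annexins behaved differently from one another. Anxa2, whose protein assembles plasminogen and its activator at the cell surface, read 7.09, 7.16, 7.92 and 6.27 in heart CCR8-, 6.93, 6.67, 7.28 and 7.36 in heart CCR8+ and 8.45, 8.68, 7.43 and 6.81 in MLN CCR8-. The values were 7.35, 6.55, 6.12 and 3.22 in MLN CCR8+. Its mean was lowest in MLN CCR8+ (5.81 ± 1.80), but the group overlapped every other one, and the difference from MLN CCR8- of -2.03 ± 0.63 (4.09-fold) became -1.17 ± 0.43 (2.25-fold) without MLN CCR8+ replicate 4. Anxa5, known as the probe for phosphatidylserine on dying cells, lay between 6.14 and 7.63 in all 16 libraries, with group means from 6.47 ± 0.29 to 7.00 ± 0.48. Anxa6, an annexin with a doubled core that acts in membrane and cholesterol traffic, had its lowest mean in heart CCR8+ (5.39 ± 0.78), against 6.19 ± 0.67 in heart CCR8-. MLN CCR8- had 6.63 ± 0.48 and MLN CCR8+ 6.72 ± 0.54, and neighbouring groups overlapped.

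Anxa1 encodes the annexin that is induced by glucocorticoids and acts on formyl peptide receptors. It was low and uneven, with 3.26, 5.20, 7.10 and 5.48 in heart CCR8-, 4.37, 6.83, 4.40 and 5.90 in heart CCR8+ and 4.53, 0.25, 0.23 and 0.76 in MLN CCR8-. In MLN CCR8+ they were 3.22, 2.41, 3.64 and 0.05. Of the 8 MLN libraries only MLN CCR8- replicate 1 reached 4 on this scale, and of the 8 heart libraries only heart CCR8- replicate 1 fell below it. Fpr1 and Fpr2, which encode 2 of those receptors, were listed at 0 in most libraries, reached no more than 0.72 in any, and did not pass the filter.

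**Figure D1:**
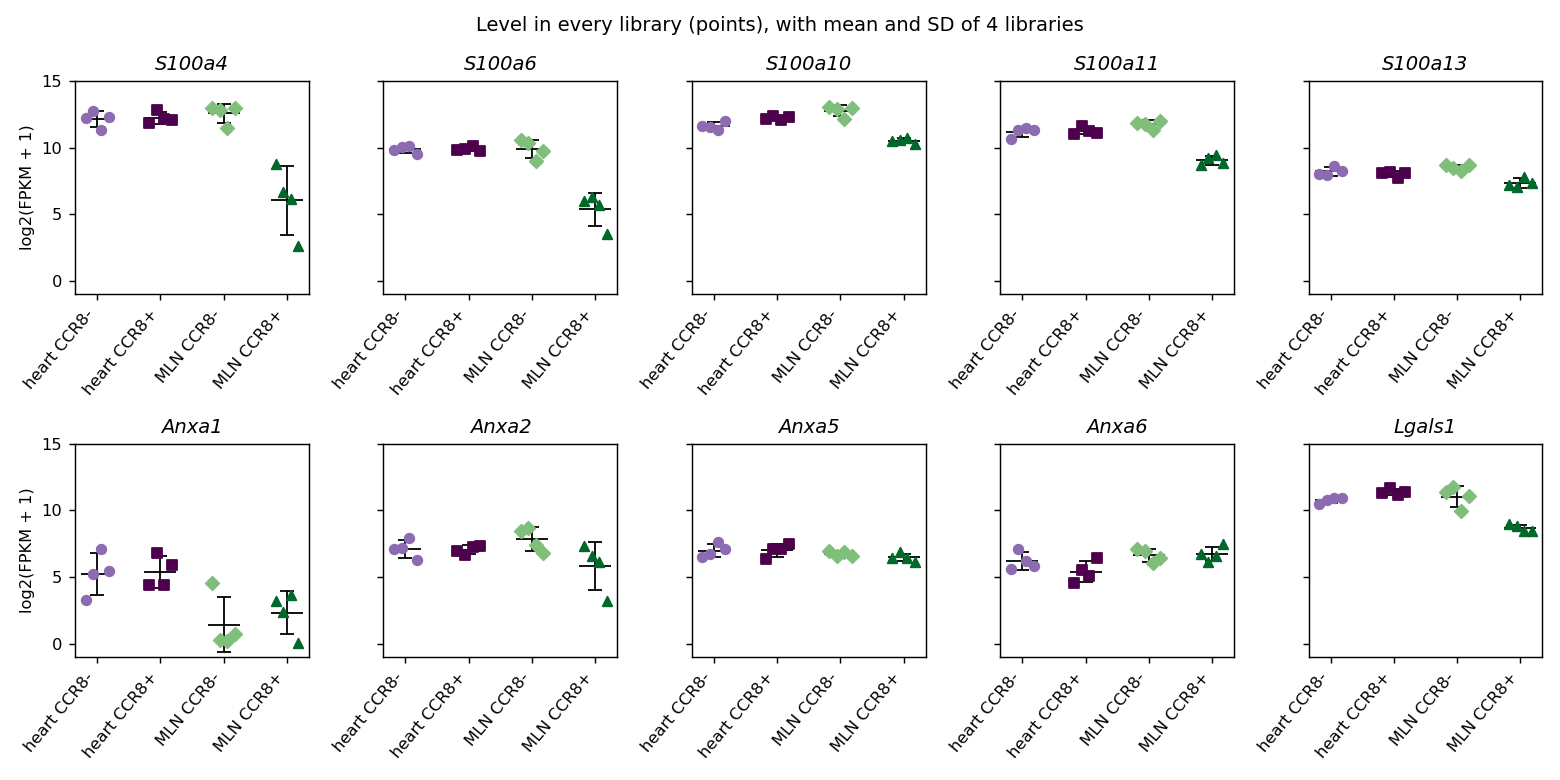
Each panel is a gene, with log2(FPKM + 1) on the vertical axis and the 4 groups on the horizontal one; points are libraries, the horizontal dash is the group mean and the bar its SD (n = 4). The MLN CCR8+ libraries lie below all others in S100a4, S100a6, S100a10, S100a11 and Lgals1, and Anxa1 is the gene that is high in heart and mostly low in MLN.

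Between MLN CCR8+ and MLN CCR8- the 10 genes had a median difference of -2.14, against -0.04 over all genes tested, and 8 were lower and 2 (Anxa1 and Anxa6) higher. The 5 S100 genes and Lgals1, 6 of 10, lay below MLN CCR8- in every MLN CCR8+ library and none lay above it. Of all genes tested 5.54% lay wholly below and 4.62% wholly above. Because the choice of genes used these libraries, nothing is read from that count. Together the 10 genes held 0.243 to 0.335% of the summed FPKM of a library in MLN CCR8+, against 1.22 to 2.50% in MLN CCR8-, 1.21 to 1.59% in heart CCR8- and 1.42 to 2.05% in heart CCR8+. Some markers of other cells moved along with this contrast. The summed FPKM of 5 B cell markers was 60.6 to 385 in the CCR8+ and 3.28 to 137 in the CCR8- cells of the node, with none of the 5 listed at 0 throughout. That of 10 macrophage and monocyte markers was 42.5 to 148 and 5.38 to 16.7, with Adgre1, Fcgr1, Mrc1 and Cd14 at 0 in every MLN CCR8+ library. Lyz2, 1 of these 10, was at 5.86 ± 0.86 in MLN CCR8+ and 1.89 ± 1.94 in MLN CCR8- on the log2 scale. Much of the sum in MLN CCR8+ thus came from this 1 gene. The part of B cells in the differences was not tested. With a covariate for other cells (the average over the fibroblast, macrophage and endothelial marker lists in each library), the difference was -6.52 ± 0.81 for S100a4 and -4.54 ± 0.44 for S100a6. This covariate holds no B cell markers and ran only from 0.37 to 0.69 in the MLN libraries. It could therefore hardly change these differences, and nothing is read from their staying alike. The summed FPKM of 10 general T cell markers overlapped between the groups (6640 to 7040 in the CCR8+ and 6280 to 9330 in the CCR8- cells). That of 6 Treg markers did not, at 3200 to 4260 in the CCR8+ and 1440 to 2080 in the CCR8- cells, and its part in the differences was not tested.

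Set against heart CCR8+, the same MLN CCR8+ libraries gave a median difference of 1.95 (heart CCR8+ minus MLN CCR8+) against -0.08 over all genes tested. S100a4 differed by 6.20 ± 0.78, S100a6 by 4.52 ± 0.43, Anxa1 by 3.04 ± 0.99, Lgals1 by 2.71 ± 0.26, S100a11 by 2.21 ± 0.19 and S100a10 by 1.70 ± 0.17. In these 6 genes every heart CCR8+ library lay above every MLN CCR8+ library, and in none did every one lie below. Of all genes tested 9.71% lay wholly above and 8.13% wholly below. The S100a4 value was 5.05 ± 0.49 without MLN CCR8+ replicate 4. Of the other 4 genes Anxa2 (1.25 ± 0.63, and 0.38 ± 0.43 without that library), S100a13 (0.68 ± 0.21) and Anxa5 (0.53 ± 0.28) had the higher mean in heart CCR8+ and Anxa6 (-1.33 ± 0.41) the lower. With the covariate for other cells Anxa1 differed by 1.42 ± 1.15 and Anxa5 by -0.11 ± 0.28. This comparison and the one within MLN share the MLN CCR8+ libraries and are not independent of each other.

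**Figure D2:**
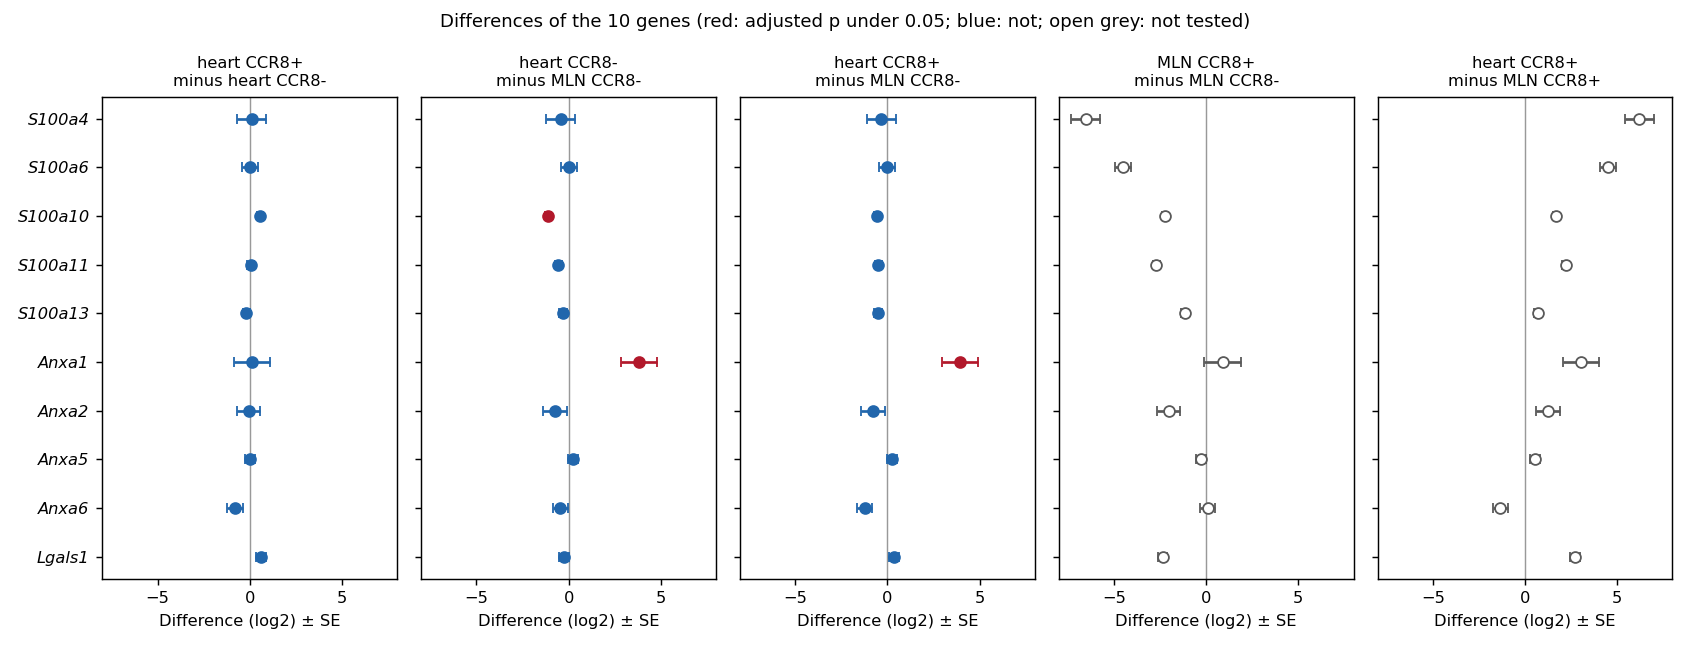
Differences of the 10 genes (horizontal axis, log2, with bars of 1 SE) in 5 comparisons; red points passed an adjusted p of 0.05, blue points did not, and open grey points were not tested because the choice of genes used them. Among the tested comparisons only Anxa1 (3.82 and 3.93) and S100a10 (-1.12) are red, and Anxa6 (-1.24) lies as far from 0 as S100a10 without passing, while the untested ones reach -6.53 and 6.20 in S100a4.

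Within the heart, none of the 10 genes differed between CCR8+ and CCR8- Tregs at an adjusted p under 0.05 (limma, Benjamini-Hochberg over all 10369 genes), and 2 did at an unadjusted p under 0.05, where 11.1% of all genes tested did. Of all genes tested 0.27% were called higher and 0.0964% lower in heart CCR8+. S100a4 differed by 0.10 ± 0.78 (95% interval -1.54 to 1.73, adjusted p = 0.981, limma) and S100a6 by -0.01 ± 0.43 (-0.90 to 0.89, adjusted p = 0.998, limma). These intervals include the spread of the MLN CCR8+ libraries. With only the 2 heart groups in the fit the standard error was 0.28 for S100a4 and 0.15 for S100a6, and neither passed (adjusted p = 0.935 and 0.994, limma). The genes with the smallest unadjusted p were S100a10 and Lgals1, each with every heart CCR8+ library above every heart CCR8- library. S100a10 differed by 0.57 ± 0.17 (0.22 to 0.92, adjusted p = 0.182, limma), or 1.48-fold, and Lgals1 by 0.60 ± 0.26 (0.06 to 1.13, adjusted p = 0.381, limma), or 1.51-fold. Such separation was seen in 3.45% of all genes tested for higher and in 3.53% for lower values in heart CCR8+, and in 2 and 0 of the 10 genes. Anxa6 differed by -0.80 ± 0.41 with overlap (adjusted p = 0.487, limma), and the remaining 5 genes by -0.18 to 0.12.

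Between the tissues, S100a10 was lower and Anxa1 higher in heart CCR8- than in MLN CCR8- Tregs, and the other 8 genes did not pass the test. Over all genes tested 2.95% were called higher and 1.61% lower in heart CCR8-, against 1 and 1 of the 10. At an unadjusted p under 0.05 (limma) 3 of the 10 differed, where 18.4% of all genes tested did. S100a10 differed by -1.12 ± 0.17, or 2.18-fold, with all 4 heart libraries below all 4 MLN libraries (adjusted p = 0.000614, limma). With the covariate for other cells it was -1.10 ± 0.28 and no longer passed (adjusted p = 0.144, limma). S100a4 differed by -0.42 ± 0.78, S100a6 by 0.00 ± 0.43, S100a11 by -0.56 ± 0.19 (adjusted p = 0.109, limma) and Lgals1 by -0.25 ± 0.26.

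Heart CCR8+ Tregs were compared with the same MLN CCR8- libraries, so this contrast is not independent of the last one. Anxa1 was again higher (3.93 ± 0.99, adjusted p = 0.0297, limma) and none of the 10 was called lower, where 2.72% of all genes were called higher and 1.23% lower. At an unadjusted p under 0.05 (limma) 5 of the 10 differed, where 15.8% of all genes tested did. S100a13 differed by -0.49 ± 0.21 and did not pass (adjusted p = 0.254, limma), with every heart CCR8+ library below every MLN CCR8- library. The share of all genes separated in this way was not determined here. S100a10 differed by -0.55 ± 0.17 (adjusted p = 0.0761, limma). Without MLN CCR8- replicate 3, the library with the lowest S100a10 of its group, it passed at -0.75 ± 0.14 (adjusted p = 0.00599, limma). That library also had the lowest value of its group in 8 of the 10 genes. Anxa6 differed by -1.24 ± 0.41 (adjusted p = 0.106, limma), and by -1.59 ± 0.40 without heart CCR8+ replicate 4, where it passed (adjusted p = 0.0439, limma).

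The higher Anxa1 in heart did not pass under several settings. Fibroblast markers were also higher in heart, while endothelial markers overlapped between heart CCR8+ and MLN CCR8-. Heart CCR8- exceeded MLN CCR8- by 3.82 ± 0.99, or 14.1-fold (adjusted p = 0.0327, limma), with MLN CCR8- replicate 1 (4.53) above heart CCR8- replicate 1 (3.26). In the same libraries the summed FPKM of fibroblast markers was 79.9 to 361 in heart CCR8-, 14.5 to 241 in heart CCR8+ and 0.0505 to 4.85 in MLN CCR8-. Pdgfra was at 0 in all heart libraries and Lum in all MLN CCR8- libraries, and the other 9 fibroblast markers were above 0 in each of these groups. Macrophage and monocyte markers summed to 309 to 864, 3.94 to 2230 and 5.38 to 16.7, with Adgre1, C1qa and Fcgr1 at 0 in all MLN CCR8- libraries. Endothelial markers summed to 23.6 to 791, 11.7 to 37.4 and 9.29 to 41.5, with Cdh5, Tie1 and Emcn at 0 in all MLN CCR8- libraries. The library with the highest Anxa1 (7.10), heart CCR8- replicate 3, was also the one with the endothelial sum of 791 and the fibroblast sum of 361. With the covariate for other cells, built from these 3 lists, Anxa1 differed by 1.22 ± 1.46 (adjusted p = 0.875, limma) in heart CCR8- against MLN CCR8- and by 2.13 ± 1.20 (adjusted p = 0.551, limma) in heart CCR8+ against MLN CCR8-. In heart CCR8+ replicate 1, where fibroblast markers summed to 14.5 and macrophage markers to 3.94, Anxa1 read 4.37 and S100a4 11.83. The covariate itself was 2.20 to 4.65 in heart CCR8-, 0.51 to 3.26 in heart CCR8+ and 0.37 to 0.47 in MLN CCR8-. It thus largely follows tissue, and the fit cannot tell other cells from tissue. The part of other cells in the Anxa1 difference was not tested.

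The call for Anxa1 also rested on single libraries. In heart CCR8- against MLN CCR8- it did not pass without heart CCR8- replicate 2, 3 or 4 or without MLN CCR8- replicate 2, 3 or 4 (differences of 3.20 to 3.84, adjusted p from 0.0655 to 0.104, limma). In heart CCR8+ against MLN CCR8- it did not pass without heart CCR8+ replicate 2 or 4 or without MLN CCR8- replicate 2, 3 or 4 (3.45 to 3.76, adjusted p from 0.0763 to 0.106, limma). Without MLN CCR8- replicate 1, the only high MLN library, the differences were 4.84 ± 0.89 and 4.96 ± 0.89 (adjusted p = 0.00361 and 0.00389, limma).

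**Figure D3:**
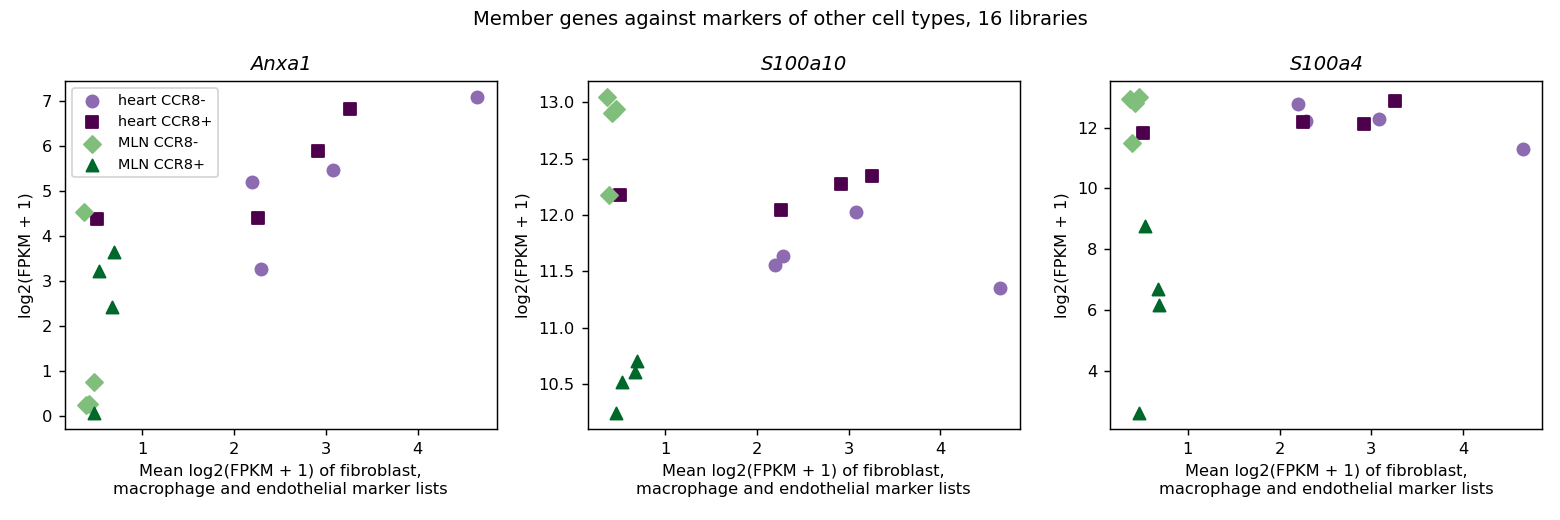
Levels of Anxa1, S100a10 and S100a4 (vertical axes, log2(FPKM + 1)) against the average of 3 marker lists, of fibroblasts, macrophages and endothelial cells (horizontal axis, log2(FPKM + 1)) in 16 libraries, 1 point each. The marker mean was 0.37 to 0.69 in the MLN libraries and 2.20 to 4.65 in 7 of the 8 heart libraries, with heart CCR8+ replicate 1 at 0.51; S100a4 spans 2.59 to 13.01 among the MLN libraries alone.

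The genes around S100a4 and S100a6 on chromosome 3 differed less between MLN CCR8+ and MLN CCR8-. Several of the S100 genes there were at or near 0 in MLN CCR8- and had little room to be lower. In the first cluster Ilf2, Snapin and Chtop, genes for proteins of RNA and vesicle handling, differed by 0.20, -0.04 and -0.08. S100a5, which lies between S100a4 and S100a6, was listed at 0 in all libraries of 3 groups and in 3 MLN CCR8+ libraries. The remaining library, at 3.37, gave its mean of 0.84 in MLN CCR8+. S100a3, on the other side of S100a4, had means of 1.91 in MLN CCR8- and 0.75 in MLN CCR8+. It was listed at 0 in 2 libraries of MLN CCR8- and in 3 of MLN CCR8+. S100a2 had means of 0.68 in MLN CCR8- and 0.45 in MLN CCR8+. S100a14 and S100a7a had means of 0.10 or less in every group. S100a1 had means of 5.46 and 4.08 in CCR8- and CCR8+ Tregs of the heart, and of 2.06 and 1.77 in those of the node. S100a8 and S100a9, the calprotectin genes of neutrophils and monocytes, were listed at 0 in some libraries and reached 5.91 and 4.33 at most. The mean of S100a9 was 0.0 in MLN CCR8- and 1.93 in MLN CCR8+. S100a16, also in this cluster, had means of 4.69 in heart CCR8- and 1.17 in heart CCR8+ and of 0.16 or less in the MLN groups. The highest group means of this stretch were those of S100a4, S100a6 and S100a13.

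**Figure D4:**
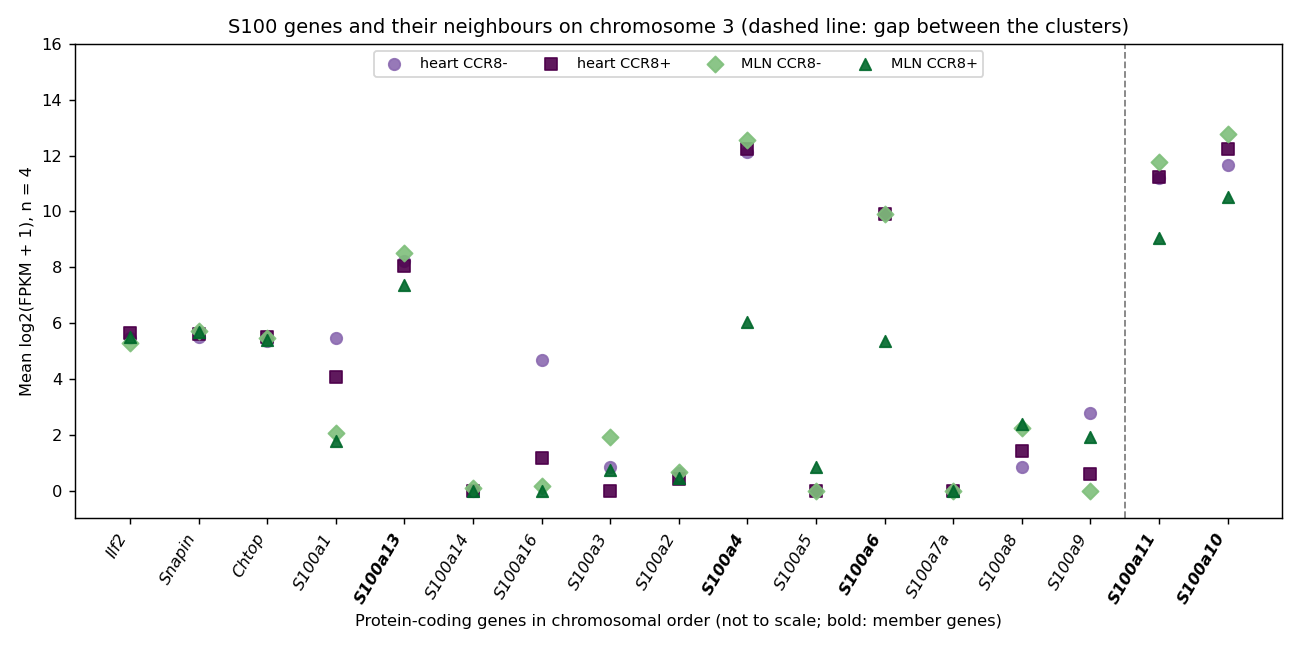
Group means (log2(FPKM + 1), n = 4) of protein-coding genes of the S100 clusters in chromosomal order, not to scale, with the 10-gene set's members in bold and a dashed line at the gap between the clusters. The MLN CCR8+ triangles drop at S100a4 (6.04) and S100a6 (5.37), and less at S100a11 (9.05), S100a10 (10.52) and S100a13 (7.35), while Ilf2, Snapin and Chtop coincide in all 4 groups.

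There were 28 other S100, annexin and galectin genes, and 17 passed the filter. None was called between heart CCR8+ and heart CCR8- (median -0.05, all genes 0.00), where 0.27% of all genes were called higher and 0.0964% lower. Between heart CCR8- and MLN CCR8- 2.95% of all genes were called higher and 1.61% lower. S100a16 was the only one of this list called there (higher, 4.53 ± 1.06, adjusted p = 0.0178, limma). It lay between 2.05 and 8.14 in heart CCR8-, reached no more than 0.34 in MLN CCR8- and was listed at 0 in all of MLN CCR8+. The count was 0 with the covariate for other cells, with just the 2 groups in the fit or without a filter, and 2 without heart CCR8- replicate 1, heart CCR8+ replicate 1 or MLN CCR8- replicate 1. Lgals3, the gene for galectin 3, was listed at 0 in 3 MLN CCR8+ libraries and read 3.22 in the other, against 2.30 to 7.12 in MLN CCR8- and 3.49 to 8.25 in heart CCR8+. It was the only gene of this list called between MLN CCR8+ and MLN CCR8- (lower, -4.23 ± 0.97, adjusted p = 0.0163, limma), where 2.04% of all genes were called higher and 2.09% lower. The count was 0 without MLN CCR8- replicate 1 or 2 or MLN CCR8+ replicate 1 or 4. Lgals3 (5.13 ± 0.97, adjusted p = 0.00201, limma) and Lgals7 (3.26 ± 0.83, adjusted p = 0.0152, limma) were higher in heart CCR8+ than in MLN CCR8+, where 5.82% of all genes were called higher and 3.97% lower. Without MLN CCR8+ replicate 4 the count was 1. Between heart CCR8+ and MLN CCR8- 2.72% of all genes were called higher and 1.23% lower. Lgals7 was also called higher in heart CCR8+ there (3.12 ± 0.83, adjusted p = 0.0397, limma). It was listed at 0 in 2 libraries of each MLN group, and the count of that list fell to 0 without any single heart CCR8+ library or without MLN CCR8- replicate 3 or 4, and was 2 without heart CCR8- replicate 3. Lgals9, for comparison, lay between 6.66 and 8.76 in all libraries. The list medians were 0.36 between heart CCR8- and MLN CCR8-, 0.45 between heart CCR8+ and MLN CCR8-, -0.14 between MLN CCR8+ and MLN CCR8- and -0.07 between heart CCR8+ and MLN CCR8+, against -0.10, -0.09, -0.04 and -0.08 over all genes.

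Among 19 genes of partners and receptors of these proteins 14 passed the filter. Ahnak, the large scaffold that binds the complex of S100A10 and annexin A2, was lower in MLN CCR8+ (1.52 to 3.76) than in MLN CCR8- (3.93 to 5.20), by -1.88 ± 0.50 (adjusted p = 0.0395, limma). It was higher in heart CCR8+ (4.04 to 5.51) than in MLN CCR8+ by 2.20 ± 0.50 (adjusted p = 0.00795, limma). Itgb1, the integrin beta 1 chain that galectin 1 binds, was lower in MLN CCR8+ (4.49 to 6.16) than in MLN CCR8- (6.69 to 7.52), by -2.01 ± 0.37 (adjusted p = 0.0045, limma). Itgb1 was also lower in heart CCR8+ than in MLN CCR8- (-1.45 ± 0.37, adjusted p = 0.0343, limma). These are 2 of 14 called lower within MLN, 1 of 14 called higher in heart CCR8+ than in MLN CCR8+, 1 of 14 called lower in heart CCR8+ than in MLN CCR8- and 0 in the remaining comparisons, against 2.09, 5.82 and 1.23% of all genes tested in the first 3 of these. Within MLN the count was 1 without MLN CCR8- replicate 1, 3 or 4, MLN CCR8+ replicate 1, 2 or 4 or heart CCR8+ replicate 1 or 3. The call in heart CCR8+ against MLN CCR8- was lost without any single library of either group. Between heart CCR8- and MLN CCR8- 1 gene was called without MLN CCR8- replicate 2. Myh9, which encodes the myosin that S100A4 binds, had group means from 3.04 ± 0.43 to 3.63 ± 0.35, and Cacybp, the calcyclin-binding protein gene, from 6.01 ± 0.27 to 6.42 ± 0.16. Neither was called in any comparison. The list medians, in the order heart CCR8+ against heart CCR8-, heart CCR8- and heart CCR8+ against MLN CCR8-, MLN CCR8+ against MLN CCR8- and heart CCR8+ against MLN CCR8+, were -0.34, -0.08, 0.11, -0.09 and 0.02, against 0.00, -0.10, -0.09, -0.04 and -0.08 over all genes.

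Of 19 effector-memory T cell genes 9 were called lower and 2 higher in MLN CCR8+ than in MLN CCR8-, where 2.09 and 2.04% of all genes were. These 11 calls became 4 with only the 2 groups compared, and 8 to 11 with single libraries left out. The median was -0.36 against -0.04. The list was written with results of these libraries known and is no independent evidence of a direction. Ccr2, the receptor for monocyte chemoattractants, fell from 5.69 ± 0.40 to 1.12 ± 1.25, by 4.57 on the log2 scale (SE 0.62, adjusted p = 0.000334, limma). Il18r1, a chain of the interleukin 18 receptor, differed by -2.77 ± 0.63 (adjusted p = 0.016, limma) and Cxcr3, the receptor for interferon-induced chemokines, by -2.13 ± 0.40 (adjusted p = 0.00451, limma). The pair that rose was Capg, an actin-capping protein gene (1.26 ± 0.27, adjusted p = 0.0107, limma), and Plp2, a membrane protein gene (1.05 ± 0.25, adjusted p = 0.0217, limma). The called genes of this list thus moved in both directions. Of the same list 11 were called higher and none lower in heart CCR8+ than in MLN CCR8+ (median 0.74, all genes -0.08), where 5.82 and 3.97% of all genes were. They included Ccr2 (5.48 ± 0.62, adjusted p = 1.34e-05, limma), Id2, a transcriptional regulator of effector lymphocytes (4.65 ± 0.27, adjusted p = 4.84e-09, limma), and the lamin gene Lmna (4.17 ± 0.63, adjusted p = 0.000264, limma). The count was 7 with the covariate for other cells, without heart CCR8+ replicate 2 or 3 or without MLN CCR8+ replicate 4.

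Within the heart none of these 19 genes was called between CCR8+ and CCR8- Tregs (median 0.01), where 0.27% of all genes were called higher and 0.0964% lower. The count was 1 without heart CCR8- replicate 2 or 3, heart CCR8+ replicate 4 or MLN CCR8+ replicate 4. Against MLN CCR8-, 3 of the 19 were called higher and 1 lower in heart CCR8-, where 2.95 and 1.61% of all genes tested were. Those were Lmna (4.04 ± 0.63, adjusted p = 0.000856, limma), Id2 (2.20 ± 0.27, adjusted p = 9.18e-05, limma) and the transcription factor gene Klf6 (1.85 ± 0.36, adjusted p = 0.00462, limma), and the lower one was the actin-binding thymosin gene Tmsb4x (-0.30 ± 0.08, adjusted p = 0.039, limma). Tmsb4x was the top-ranked gene of all heart CCR8+ and MLN CCR8- libraries and there stood at 14.9, the highest value the normalisation allows, so its difference is one of rank. In heart CCR8+ against MLN CCR8- Id2 (3.15 ± 0.27), Lmna (3.05 ± 0.63) and the hyaluronan receptor gene Cd44 (1.33 ± 0.29) were higher and Cxcr3 (-2.33 ± 0.40) lower, with adjusted p of 1.46e-06, 0.00936, 0.0141 and 0.00204 in limma. Of all genes tested 2.72% were called higher and 1.23% lower in that comparison. The list medians in heart CCR8- and heart CCR8+ against MLN CCR8- were -0.03 and 0.46, against -0.095 and -0.086 over all genes. With the covariate for other cells the 4 calls in heart CCR8- became 0 and the 4 in heart CCR8+ became 1.

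**Figure D5:**
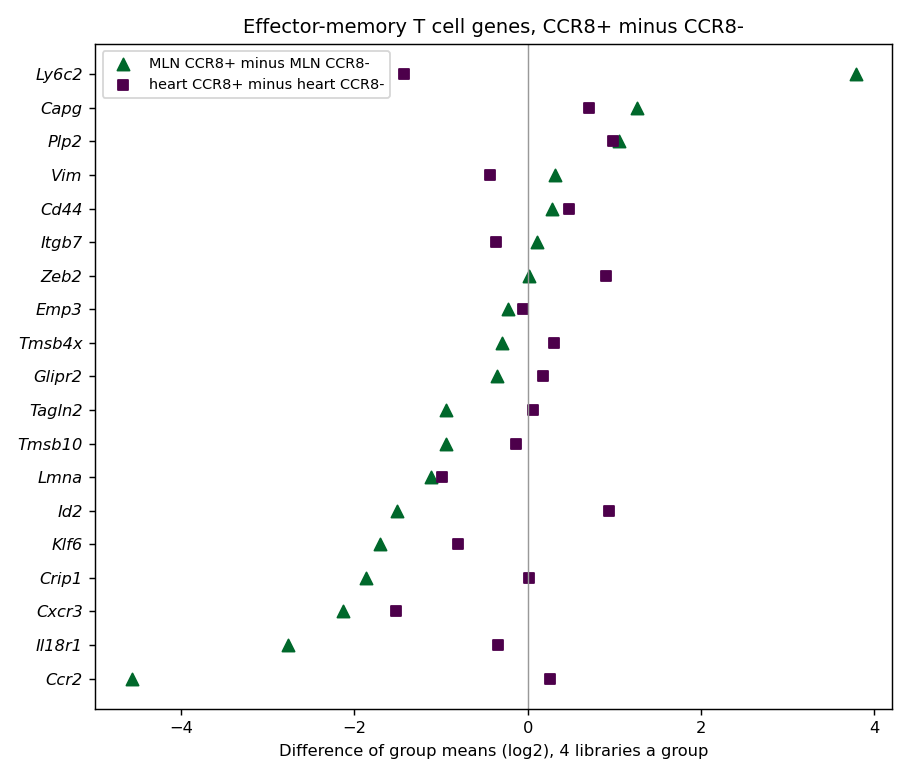
Differences of group means (horizontal axis, log2, 4 libraries a group) of 19 effector-memory T cell genes between CCR8+ and CCR8- Tregs of MLN (triangles) and heart (squares), ordered by the MLN value. Ccr2 (-4.57), Il18r1 (-2.77) and Cxcr3 (-2.13) have the lowest MLN values and Ly6c2, which was not called, the highest; the difference between the tissues was not tested.

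The genes closest to S100a4 and S100a6 were found by the root mean square distance between log2 values over the 16 libraries, each gene centred on its own mean. For S100a4 the nearest named gene was S100a6 (distance 1.10), followed by Ccr2 (1.20), Rnf125 (1.49), Lgmn (1.66) and Emb (1.69). Lgmn had group means of 4.20 in heart CCR8-, 5.32 in heart CCR8+ and 4.92 in MLN CCR8-, and of 0.03 in MLN CCR8+. For S100a6 they were Emb (0.835), Gna15 (0.888), Rnf125 (0.897), Ap3s1 (0.938) and Rora (0.975). Gna15 had group means of 5.43, 5.35 and 5.29 in heart CCR8-, heart CCR8+ and MLN CCR8-, and of 1.35 in MLN CCR8+. Among pairs of the 10 genes the closest were S100a10 with S100a11 (0.449), neighbours in the second cluster, and S100a11 with Lgals1 (0.463), and the farthest was S100a4 with Anxa6 (3.32). These distances are a description over libraries that share their normalisation and, within a group, their tissue and sort. They include the MLN CCR8+ libraries, by whose low values S100a4 and S100a6 were chosen. Genes that are low in those same libraries therefore come out near both, and nothing further is read from the nearness.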

How the data were processed

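The libraries were made with the NEBNext Ultra RNA kit, per the labels. Alignment used HISAT2 2.0.5 and the mm10 (GRCm38) build, and counting featureCounts 1.5.0-p3, per the submitters' processing notes. No source used here says if counting used strand. The deposited table names its columns FPKM, and its values were read as log2(FPKM + 1), quantile normalised by the authors: the highest value is 14.899 in all 16 libraries and the values with the log undone sum to 1007109 to 1007347. These 2 steps were inferred from the values and are stated in no source used here, and FPKM and TPM could not be told apart. No counting error is given because depth is unknown, and at the top ranks a value follows from rank. The plan expected values with no log, which leaves the test as it was.

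Of 19219 entries 24 named as dates were left out, and 10369 genes were tested, using limma 3.58.1 in R 4.3.3. A linear model of group means took in all 16 libraries, with a variance trend, 12 residual and 7.01 prior degrees of freedom, two-sided tests and Benjamini-Hochberg adjustment over all genes tested. A gene was called at an adjusted p under 0.05. The procedure was also run on simulated data in which all groups of a gene had the same spread. The spread of S100a4 differed between groups, so nothing is read from that run about the differences given here. Coordinates are from GENCODE vM21.

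The 10 genes, the lists and the tests were chosen with earlier results of these data known, so no list is independent evidence. Named list genes are the called ones with the largest difference, at most 3 per direction, list and comparison. Others are named as members, neighbours, receptors or partners, some of them after their values were seen (Lgals9, Myh9, Cacybp, Fpr1 and Fpr2). S100a4 overlaps Gm42674 on the same strand, 41.1% of the 50-base words of S100a11 occur in 3 other genes, and Anxa1, Anxa2 and Anxa5 overlap noncoding genes, so reads could be divided there. None of those genes is in the table. Other settings tried were no filter, a stricter one (5 in place of 1), a pseudocount of 0.1, median-of-ratios factors, array weights, a replicate block, a fit of just the 2 groups compared, a covariate for other cells, and leaving out each library.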

Additional observations from a re-analysis of the deposited data

Results flagged for a closer look

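In 3 of the 40 groups of 4 libraries examined (10 genes in 4 groups), 1 library stood farther from the others than Dixon's critical value allows, where chance gives about 1 group in 20. In MLN CCR8- replicate 3 S100a4 read 11.49, the lowest of its group. In the same library S100a10 read 12.18, again the lowest. In MLN CCR8- replicate 1 Anxa1 read 4.53, against 0.76 or less in the other libraries of that group.

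S100a10 and Lgals1 were higher in every heart CCR8+ library than in any heart CCR8- library and lower in every MLN CCR8+ library than in any MLN CCR8- library. CCR8+ minus CCR8- was 0.57 in heart and -2.25 in MLN for S100a10, a difference of 2.82 between the tissues. For Lgals1 it was 0.60 and -2.36, a difference of 2.96. Neither heart difference passed the test (adjusted p = 0.182 for S100a10 and 0.381 for Lgals1, limma). Separation of this kind was not rare among all genes tested. In the heart 3.45% had every CCR8+ library on the higher side, and in the node 5.54% had every CCR8+ library on the lower side. The share of genes with both patterns was not determined. The differences between the tissues were not tested, since the choice of genes used the MLN CCR8+ libraries, and no reversal is read from them.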

How the results depend on the processing

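Depth is unknown, and each group has 4 libraries of about 100 cells. Of the members 2 were called between heart CCR8- and MLN CCR8- and 1 between heart CCR8+ and MLN CCR8-. With a pseudocount of 0.1, no filter or only the 2 groups compared these counts were 1 and 0, with the covariate for other cells 0 and 0, and over single libraries left out 1 to 2 and 0 to 1. The count within the heart stayed 0, and the 6 members without overlap in each MLN CCR8+ comparison were 6 to 7. Deviations from group means were little correlated between same-numbered libraries (24 pairs, -0.0933 to 0.0589). In 3 of the 24 pairs the match with the own number was the best. This check cannot tell if equal numbers mark a shared mouse or day. With a replicate block 1 member was called between heart CCR8- and MLN CCR8- (Anxa1 at an adjusted p of 0.0507 in limma), and 0 genes of the related list between heart CCR8+ and MLN CCR8-. The cause of the changes below was not tested.

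Of the list of related S100, annexin and galectin genes 1, 1, 1 and 2 were called between heart CCR8- and MLN CCR8-, heart CCR8+ and MLN CCR8-, MLN CCR8+ and MLN CCR8-, and heart CCR8+ and MLN CCR8+. The counts were 0, 0, 0 and 1 with no filter, and 0, 2 and 0 in the first 3 with only the 2 groups compared. With the covariate they were 0 in all but MLN CCR8+ against MLN CCR8-, and with the pseudocount 0 in the second. Over libraries left out they ran over 1 to 2, 0 to 2, 0 to 1 and 1 to 3. Of the partners and receptors, the 1 gene in heart CCR8+ against MLN CCR8- became 0 with no filter, median-of-ratios factors or the covariate, and the 2 in MLN became 1 with no filter, median-of-ratios factors or only the 2 groups compared. Over libraries left out heart CCR8- against MLN CCR8- gave 0 to 1, heart CCR8+ against MLN CCR8- 0 to 1 and MLN 1 to 2. Of the effector-memory genes 4, 4 and 11 were called between heart CCR8- and MLN CCR8-, heart CCR8+ and MLN CCR8-, and heart CCR8+ and MLN CCR8+, and 0, 1 and 7 with the covariate. The 11 in MLN became 4 with only the 2 groups compared. Over libraries left out the heart gave 0 to 1 and heart CCR8+ against MLN CCR8+ 7 to 11.

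Median-of-ratios factors moved the median of all genes by -0.17 in MLN CCR8- and by -0.07 to -0.05 elsewhere. Differences near 0 changed sign without being called. Between heart CCR8+ and heart CCR8- S100a6 was 0.02 with these factors, 0.03 with array weights and 0.05 with the covariate, and Anxa2 0.06 with array weights and 0.10 with the covariate. Against MLN CCR8- S100a6 was 0.00 with the pseudocount and 0.12 with the factors in heart CCR8-, and 0.13 with the factors and 0.02 with array weights in heart CCR8+. With the covariate Anxa5 differed from MLN CCR8- by -0.79 in heart CCR8- and by -0.46 in heart CCR8+. Over libraries left out the heart differences were -0.18 to 0.31 for S100a4, -0.13 to 0.08 for S100a6, -0.12 to 0.16 for S100a11, -0.55 to 0.73 for Anxa1, -0.33 to 0.22 for Anxa2 and -0.15 to 0.24 for Anxa5. Against MLN CCR8- S100a6 ran over -0.30 to 0.21 in heart CCR8- and -0.31 to 0.21 in heart CCR8+, and Lgals1 over -0.01 to 0.58 in heart CCR8+.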
